A study of Mus musculus with 3 samples.

Results

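miR-218 is a microRNA (miRNA) made from introns of the Slit genes, and it was examined here in extracellular vesicles (EVs) of the mouse testis at postnatal day 7 (PND7). Its members are the catalogue identifiers of either arm of the miR-218 precursors, miR-218-5p, miR-218-1-3p and miR-218-2-3p, in the mature and hairpin types of entry. These are 3 of the 805 identifiers with mature or hairpin counts, and they hold 4 of the 1347 mature and hairpin entries. The member that carries nearly all of their counts is listed as mmu-miR-218-5p, with 6932 to 7832 mature counts per library. It was chosen by the high count of its mature entry in these same libraries, so its level is given as a description without a test.

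The series holds 3 small RNA libraries of a single group, each made from EVs of 10 C57/BL6 male mice, and there is no comparison group. The word treated appears in the sample titles, whereas the other labels describe EVs isolated from testis tissue. The decapsulated testes were digested, the EVs left in the supernatant of the cell suspension were collected on an affinity column and concentrated by ultracentrifugation, and proteinase K, PMSF and RNase A were applied before RNA extraction. EVs of all cell types of the testis are therefore pooled, and less RNA per EV cannot be told apart from fewer EVs of a type. The libraries held between 25716952 and 27939308 clean reads, with 870967 to 1005836 counts on mature entries and 493345 to 612122 on hairpin entries. Of the marker miRNAs, the pair listed as gonadal somatic was miR-202-5p and miR-202-3p. Its sum lay between 21203 and 29797 CPM of the mature counts, that is, counts scaled to a total of 1000000. Which cells of the testis released this pair was not tested.

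A miRNA is cut from a hairpin precursor, first by Drosha and then by Dicer, and 1 arm of the resulting duplex usually stays in Argonaute as the guide that finds target mRNAs through its seed. The precursors of miR-218 lie in introns of Slit2 and Slit3, which encode secreted guidance proteins. The Slit proteins bind Robo receptors, and Robo1 is a known target of miR-218, so the host gene, its receptor and the intronic miRNA belong to the same circuit. Outside the testis, miR-218 is best known from motor neurons and from the vascular endothelium.

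In GRCm38, Mir218-1 occupies bases 48223942 to 48224051 of chromosome 5 (plus strand), in the intron between exons 14 and 15 of the principal Slit2 transcript, which has 36 exons. This intron is 4572 bases long, and the precursor starts 3861 bases after exon 14. Mir218-2 occupies bases 35616816 to 35616925 of chromosome 11, also in the plus direction, in the intron between exons 14 and 15 of Slit3, again in a transcript of 36 exons. This intron is 9571 bases long, and the precursor starts 4379 bases after exon 14. Both miRNA genes lie on the strand of their host, and none of the protein-coding transcripts that span them (4 of Slit2 and 1 of Slit3) has an exon there.

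The mature sequences show what a read can tell about its origin. They are given 5′ to 3′ from RefSeq on GRCm38.p6, with the seed (bases 2 to 8) in capitals.
miR-218-5p: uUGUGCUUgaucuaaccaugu
miR-218-1-3p: aAACAUGGuuccgucaagcacc
miR-218-2-3p: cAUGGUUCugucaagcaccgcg
miR-218-5p was identical in both precursors, at chr5:48223966-48223986 and chr11:35616840-35616860. The 3p arms differ between the precursors, and their annotated starts are shifted, so that their seeds differ too. They overlap over 19 bases, from base 4 to base 22 of miR-218-1-3p, of which 18 are identical. The difference is C12U, counted from 1 at the 5′ end of miR-218-1-3p, with the base of miR-218-2-3p last.

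The whole hairpins are shown because they show where the arms lie and where the precursors part, with the annotated mature arms in capitals.
Mir218-1: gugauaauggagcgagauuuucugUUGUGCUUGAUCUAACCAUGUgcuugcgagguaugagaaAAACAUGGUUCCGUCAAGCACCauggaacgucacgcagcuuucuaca
Mir218-2: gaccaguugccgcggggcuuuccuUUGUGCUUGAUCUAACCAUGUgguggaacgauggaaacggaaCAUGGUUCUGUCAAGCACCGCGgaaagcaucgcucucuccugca
Both hairpins are 110 bases long with miR-218-5p at bases 25 to 45, and without gaps they are identical at 71 positions (64.5%). The base just before miR-218-5p differs, and after it 1 further base is shared, which gives a common run of 22 bases. A read inside this run has the same letters in both hairpins and cannot be given to Slit2 or Slit3. Predicted folds had minimum free energies of -36.6 kcal/mol for Mir218-1 and -42.3 kcal/mol for Mir218-2, with 17 and 16 of the bases of miR-218-5p, in the same order, paired to the annotated 3p arm.

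The catalogues attach the name of 1 precursor to each entry, and for miR-218-5p this was the Mir218-2 precursor in every library and in both types. This name does not divide the reads between Slit3 and Slit2. Of the catalogue identifiers, 35 have more than 1 RefSeq precursor, and all 35 carried the name of a single precursor throughout.

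Mature miR-218-5p had 7613 counts in replicate 1, 7832 in replicate 2 and 6932 in replicate 3. Scaled to the mature counts of each library, this was 8741 CPM in replicate 1 (exact binomial 95% confidence interval 8546 to 8939), 7787 CPM in replicate 2 (7616 to 7960) and 7173 CPM in replicate 3 (7005 to 7343). The intervals do not overlap, so the libraries differed by more than counting error, which is all these intervals cover, since PCR copies were not told apart. The mean was 7899.98 ± 790.3 CPM (SD, n = 3), or 0.790% ± 0.0790 of the mature counts. It was 272 times the mean CPM of the median mature entry, which was 29.1 CPM.

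The spread of mature miR-218-5p between the libraries was small among the miRNAs. Its highest CPM was 1.22 times its lowest. For 148 mature miRNAs no library had fewer than 100 counts. The median of the ratio over these was 1.51, and 24 of them had a smaller ratio than miR-218-5p.

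The hairpin entry of miR-218-5p had 3652, 3338 and 2594 counts in replicates 1, 2 and 3. Scaled to the hairpin counts this was 7403, 5453 and 4492 CPM in the same order, with a mean of 5782 ± 1483 CPM (SD, n = 3). Replicate 1 was the highest and replicate 3 the lowest for both types of entry. The hairpin entry varied more than the mature entry, with a ratio of highest to lowest of 1.65 against a median of 1.45 over the 161 hairpin entries that reached 100 counts in each library. Of those entries, 106 had a smaller ratio.

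**Figure D1:**
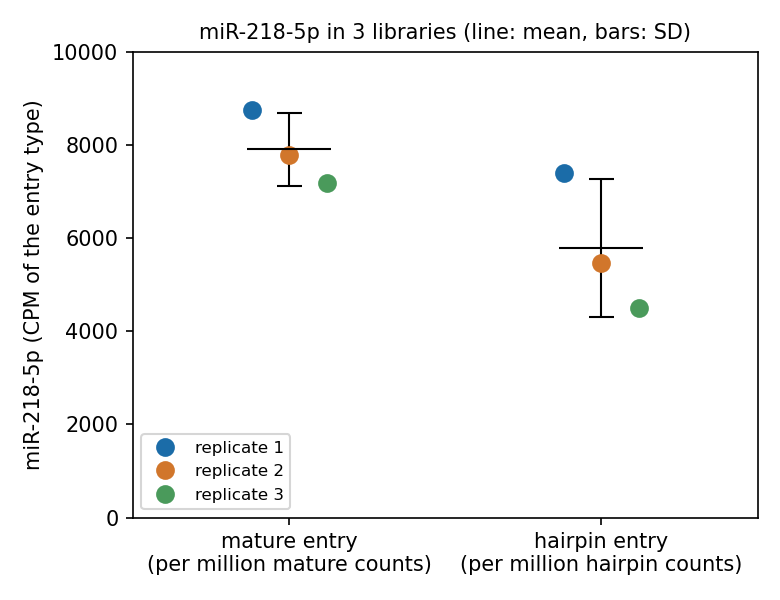
Level of miR-218-5p in each library, with mature entries as CPM of the mature counts and hairpin entries as CPM of the hairpin counts on a linear axis from 0. Points are the 3 libraries, and the line and bars give the mean and SD. The mature values lie between 7173 and 8741 CPM and the hairpin values between 4492 and 7403 CPM.

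By mean CPM, mature miR-218-5p ranked 23 of 604 mature entries. Its rank was 20 of 458 in replicate 1, 24 of 437 in replicate 2 and 23 of 467 in replicate 3. The hairpin entry ranked 36 of 743 hairpin entries, and its rank in a single library lay between 28 and 41.

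The mature miRNAs just above miR-218-5p were miR-143-3p, miR-196a-5p and miR-16-5p. miR-143-3p, a miRNA of smooth muscle and mesenchymal cells, had 9038 to 10217 CPM, and its range lay wholly above that of miR-218-5p. miR-196a-5p, made from the Hox clusters, had 7108 CPM in replicate 1 and 10312 CPM in replicate 3. It was lower than miR-218-5p in replicate 1 and higher in the others. miR-16-5p, a widely expressed regulator of the cell cycle, had a mean of 8244 ± 1114 CPM (SD, n = 3), and its difference from miR-218-5p of 344 CPM was smaller than the SD of that difference over the libraries, 1390.1 CPM. The order of miR-218-5p, miR-16-5p and miR-196a-5p is therefore not resolved by these libraries.

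Just below miR-218-5p came miR-24-3p, miR-27b-3p and let-7e-5p. miR-24-3p had 5727, 9219 and 4149 CPM in replicates 1, 2 and 3 and exceeded miR-218-5p in replicate 2, so its range overlaps that of miR-218-5p. miR-27b-3p, with 4518 to 6633 CPM, and let-7e-5p, with 3376 to 7078 CPM, were below miR-218-5p in each of the 3 libraries. miR-218-5p thus stood within a group of miRNAs of like level, between miR-143-3p above and miR-27b-3p below.

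**Figure D2:**
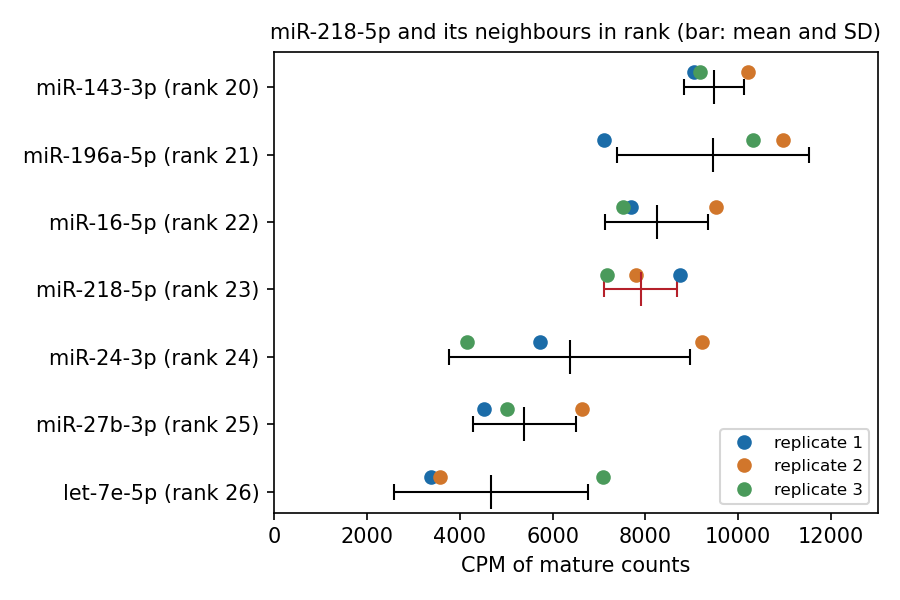
CPM of the mature counts for miR-218-5p and the 3 miRNAs on either side of it in rank, on a linear axis from 0. Points are libraries, and the bars give mean and SD. miR-196a-5p, miR-16-5p and miR-24-3p overlap the range of miR-218-5p, and miR-143-3p, miR-27b-3p and let-7e-5p do not, although let-7e-5p comes close to it in replicate 3.

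Among the hairpin entries, the ranges of all 3 entries on either side overlapped that of miR-218-5p. The nearest were miR-378a-3p with a mean of 5978 CPM above it and miR-369-5p with 5677 CPM below it, and the hairpin entry of miR-218-5p has no resolved place among them.

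Mature miR-218 counts came almost wholly from the 5p arm, the arm that carries the known miR-218 activity. In replicate 2, the mature 3p arm had 26 counts, all on miR-218-1-3p, against 7832 on the 5p arm, a ratio of 301. In replicates 1 and 3 no mature 3p count was listed. With 3 counts as the upper limit that a count of 0 allows, mature 5p counts were at least 2538-fold and 2311-fold higher. These bounds hold for mature entries only, because replicate 3 had 21 hairpin counts on the 3p arm. Counting both entry types, the 5p arm was 454-fold higher in replicate 3 (9526 against 21) and 430-fold higher in replicate 2. In replicate 1, without 3p counts of either type, the 5p arm was at least 3755-fold higher. The 5p arm held 99.9% ± 0.191 (SD, n = 3) of the mature miR-218 counts.

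The 3p entries are the ones that would tell the precursors apart. miR-218-1-3p, from the Slit2 intron, was listed only as mature and only in replicate 2. miR-218-2-3p, from the Slit3 intron, was listed only as hairpin, with 21 counts in replicate 3 against 2594 on the 5p hairpin entry. Each was thus seen in 1 library, and neither type of entry held both. With so few counts, and since the 3p arms differ by 1 base over their overlap, the relative use of the Slit2 and Slit3 precursors could not be resolved from them at this depth.

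All entries named for miR-218 together held 12011 counts in replicate 1, 11811 in replicate 2 and 10236 in replicate 3. Beside the 5p mature and 5p hairpin entries, these totals include the precursor family of the Rfam database, with 746, 615 and 689 counts in the same order.

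**Figure D3:**
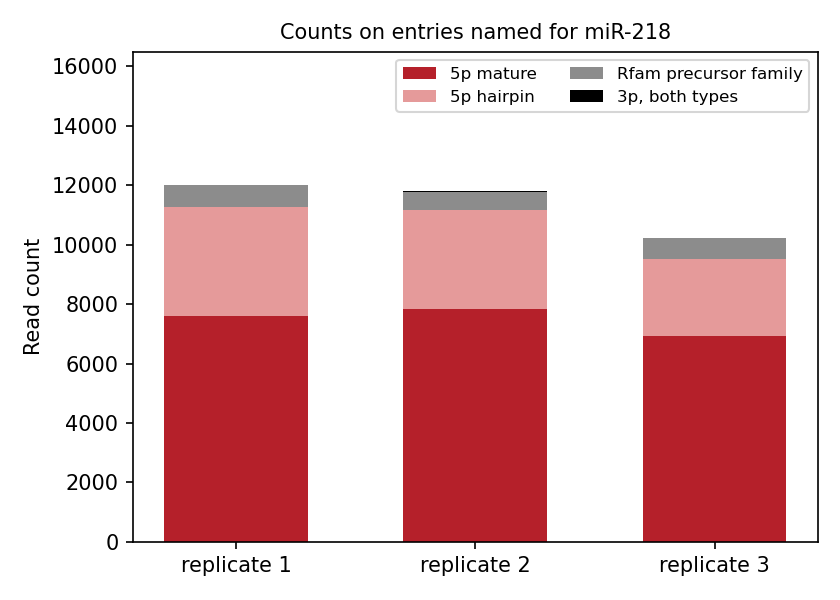
Read counts on all entries named for miR-218, stacked by entry for each of the 3 libraries on a linear axis from 0. The 5p mature entry makes up 63.4% to 67.7% of each bar and the 5p hairpin entry 25.3% to 30.4%, and the 3p entries (26 and 21 counts in replicates 2 and 3) are barely visible at the top.

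Strong preference for an arm was common in these libraries. Of 223 miRNAs with at least 100 mature counts in all, 92 had counts on 1 arm alone, and the median share of the dominant arm was 99.6%. The share of miR-218 was above that of 121 of the other miRNAs and below that of 101, at the 54.5 percentile. It stood at the 93.1 percentile of the 131 miRNAs with counts on both arms, a set that leaves out the one-armed miRNAs and that miR-218 enters through its 26 counts in replicate 2. Among its hairpin entries, the 5p arm held 99.7% ± 0.464 (SD, n = 3).

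Of the mature and hairpin counts of miR-218-5p, the mature entry held 67.6% in replicate 1 (exact binomial 95% confidence interval 66.7% to 68.4%), 70.1% in replicate 2 (69.3% to 71.0%) and 72.8% in replicate 3 (71.9% to 73.7%). The mature entry was the larger in every library, with a mean share of 70.2% ± 2.59 (SD, n = 3). The libraries differed by more than counting error here too. Over the 422 identifiers with at least 100 mature and hairpin counts in all, the median share of the mature entry was 44.5% (quartiles 20.7% and 70.1%). The share of miR-218-5p exceeded that of 316 of the others, at the 75.1 percentile. The sources used here do not say which reads were counted as hairpin.

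**Figure D4:**
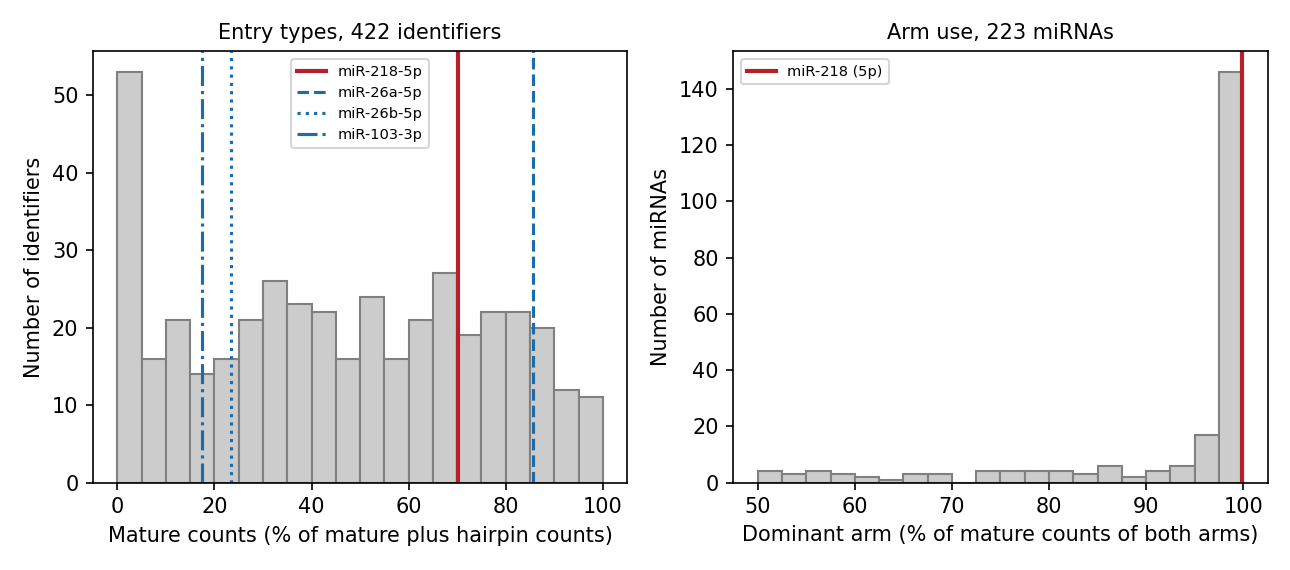
Left, number of identifiers by the percent of their mature and hairpin counts that is mature, with lines at miR-218-5p (70.2%), miR-26a-5p (85.6%), miR-26b-5p (23.4%) and miR-103-3p (17.5%). Right, number of miRNAs by the percent of their mature counts on the dominant arm, for the 223 miRNAs with at least 100 mature counts in all, with a line at miR-218 (99.9%).

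A few other miRNAs are also encoded in introns of related protein-coding genes, which makes them the closest parallels to miR-218. miR-26a-5p and miR-26b-5p lie in the Ctdsp phosphatase genes, and miR-103-3p and miR-107-3p in the Pank pantothenate kinase genes. miR-128-3p lies in R3hdm1 and Arpp21, and miR-153-3p in the Ptprn family. The hosts of these comparison miRNAs were not looked up in the annotation. Mature miR-26a-5p was more abundant than miR-218-5p in every library, with 32017 to 46858 CPM and rank 4. The others had lower means, with miR-26b-5p at 1248 ± 87.8, miR-103-3p at 135 ± 31.3 and miR-128-3p at 120 ± 80.4 CPM (SD, n = 3 each). Means of miR-218-5p were 6.33 times that of miR-26b-5p and 58.5 times that of miR-103-3p. miR-107-3p had at most 29 mature counts in a library, and miR-153-3p was listed with 10 mature counts in replicate 1 alone.

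The entry types of these miRNAs were unlike. The mature share was 85.6% ± 1.14 for miR-26a-5p, above the range of miR-218-5p in every library. It was 23.4% ± 1.75 for miR-26b-5p and 17.5% ± 2.07 for miR-103-3p (SD, n = 3 each), for which the hairpin entry was the larger. miR-128-3p had a mature share of 97.5% in replicate 1 and 38.6% in replicate 3, from at most 156 mature counts, so its mean share is not comparable. In arm use, 99.9% of the mature counts of miR-26a and 99.4% of those of miR-26b were on the 5p arm, as for miR-218. The 3p arm was the major one for miR-103, with 380 mature counts against 20, for miR-107, with 48 against 3, and for miR-128, with 337 against 0.

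**Figure D5:**
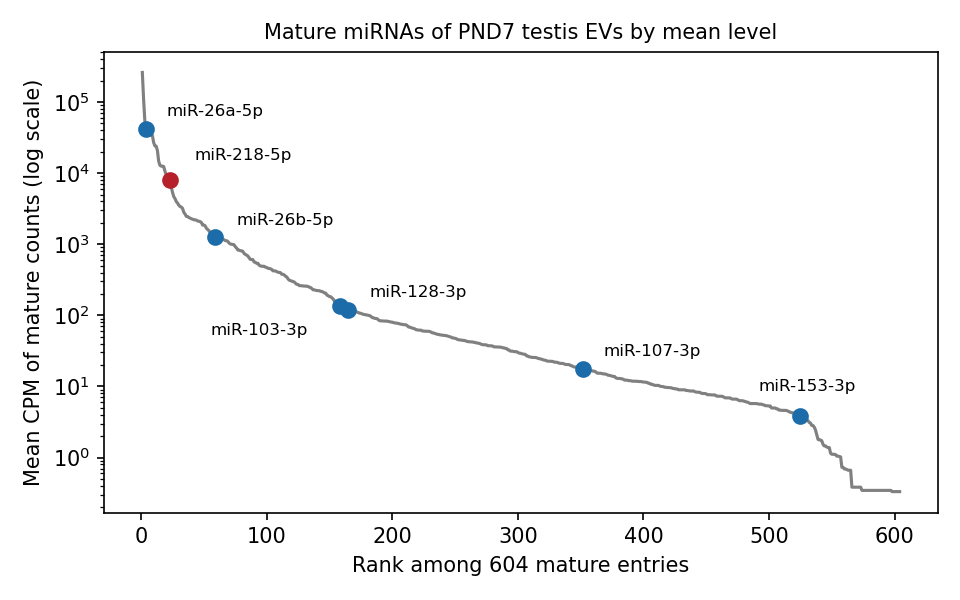
Mean CPM of the mature counts (log scale) against rank for all 604 mature entries. miR-218-5p (red) stands at rank 23, below miR-26a-5p at rank 4 and above miR-26b-5p, miR-103-3p, miR-128-3p, miR-107-3p and miR-153-3p (blue).

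Since miR-218 is known from neurons and endothelium, the marker miRNAs of these and other cell types were set beside it. The neuronal list of miR-124-3p, miR-9-5p, miR-9-3p and miR-137-3p was at or near 0. Only 1 of the 4, miR-9-5p, had mature counts, with 1, 24 and 1 in replicates 1, 2 and 3, and the summed hairpin counts of the list lay between 1 and 31. The endothelial markers miR-126a-3p and miR-126a-5p were both present, and their sum lay between 8790.2 and 17143 CPM. miR-126a-3p had 7571, 11551 and 16414 mature counts in replicates 1, 2 and 3, against 7613, 7832 and 6932 for miR-218-5p. Markers of erythroid cells summed to 323 to 527 CPM, nearly all of it miR-451a, with 452, 319 and 385 mature counts in replicates 1, 2 and 3. The other erythroid marker, miR-144-3p, was near 0, with 7, 6 and 4. Markers of striated muscle (3 of 3 present) summed to 572 to 1039.9 CPM. These sums leave out hairpin counts, which were the larger in sum for both lists. Most of them were on miR-451a, with 989 to 1174 hairpin counts per library, and on miR-133a-3p, with 994 to 1577. miR-144-3p had at most 1 hairpin count in a library. In replicates 1, 2 and 3, miR-1a-3p had 203, 180 and 238 hairpin against 185, 240 and 314 mature counts. For miR-206-3p these were 19, 24 and 35 against 96, 13 and 141. Erythroid markers had 990 to 1174 hairpin against 325 to 459 mature counts, and striated muscle markers 1198 to 1850 against 575 to 1005. For the endothelial pair they were 1645 to 2980 against 7656 to 16568. The hepatocyte marker miR-122-5p had 1 count in all. The part of any of these cell types in the level of miR-218-5p was not tested.

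A search of 1679 mature miRNA names in RefSeq found 1 other miRNA with the seed UGUGCUU, and it is shown with the seed in capitals.
miR-7002-3p: uUGUGCUUccccuugccag
It is encoded at chr2:114150516-114150534 on the minus strand, and it had no mature or hairpin count in any library. All counts found for this seed therefore came from miR-218-5p, with the limit that RefSeq sequences were found for 442 of the 604 mature identifiers.

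The miRNAs whose values over the libraries were closest to those of miR-218-5p were miR-328-3p, miR-1839-5p and miR-181a-5p. Likeness was measured as the largest difference in log2 CPM over the 3 libraries, after the mean of each miRNA was subtracted, among the same 148 mature miRNAs. This difference was 0.05 for miR-328-3p, 0.07 for miR-1839-5p and 0.09 for miR-181a-5p. Their levels were unlike, with means of 455, 539 and 53845 CPM in the same order. All 3 were highest in replicate 1, as was miR-218-5p. The 3 libraries share 1 condition, so this likeness concerns the spread between replicates and is given as a description.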

How the data were processed

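EVs were isolated from PND7 mouse testis and sequenced as 3 small RNA libraries on the BGISEQ-500 platform. The authors removed low-quality reads, mapped clean reads with Bowtie2 and cmsearch to the genome (mm10 in the submitters' processing notes) and to small RNA databases, and gave each read to a single class by a fixed order of databases. Tool versions and allowed mismatches are not given in the sources used here. The deposited values are raw read counts per entry and per class, and the deposited percent of clean reads per class was not used further. The last column of each catalogue, labelled as UMIs, holds for named small RNAs the count scaled to the clean reads (within 4.9e-05) and served only for this check. Reads without a named small RNA (unmapped, intergenic, in introns, exons or repeats) made up 62.8% to 65.9% of the clean reads. They entered none of the mature, hairpin or precursor totals, but they are part of the clean reads, which served as denominator where stated. For all 13 classes the entries of a catalogue added up to the class count.

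Counts were scaled to a total of 1000000 for each entry type (CPM). Means and SDs are over the libraries, which the labels call biological replicates. No test between conditions was possible, since there is a single group. Shares have exact (Clopper-Pearson) 95% intervals. No library was a copy of another: over 272 mature miRNAs with 10 or more counts in each library, chi-square divided by its degrees of freedom was at least 96.6 for each pair of libraries. The statistic and the shares were tested on simulated data.

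The members and lists were chosen with earlier results of these data known. Named were all miR-218 entries, the 3 miRNAs on either side in rank, miRNAs in introns of paralogous genes, marker miRNAs, miRNAs sharing the seed, and the 3 of most similar values. Sequences came from RefSeq (GRCm38.p6) and introns from GENCODE vM21 for GRCm38. Alternatives changed the denominator, the scaling (edgeR 4.0.16 TMM factors, DESeq2 1.42.0 size factors), the filter, the entry types, the averaging and the libraries. Folds were predicted with RNAfold 2.7.2, intervals computed with SciPy 1.17.1 and plots drawn with matplotlib 3.10.9, under Python 3.11.15.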

Additional observations from a re-analysis of the deposited data

Results flagged for a closer look

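Reads were also counted on the mir-218 precursor family of the Rfam database, which is neither a mature nor a hairpin entry and lies outside the rule for the members. It entered the totals of all entries named for miR-218 and no level, rank or arm share. It had 746 counts in replicate 1, 615 in replicate 2 and 689 in replicate 3. These were far above the 3 counts taken as the limit for a count of 0. There were no control libraries to set the family against. Its rank by mean CPM was 25 of 259 precursor entries, with 4964 ± 1255 CPM of the precursor counts (SD, n = 3). It made up 6.05% ± 0.775 (SD, n = 3) of all counts on entries named for miR-218. Replicate 2 had the lowest share, 5.21% (exact binomial 95% confidence interval 4.81% to 5.62%), and replicate 3 the highest, 6.73% (6.25% to 7.23%). The family model does not separate Mir218-1 from Mir218-2. The counts of all entries named for miR-218 made up 0.0467%, 0.0454% and 0.0366% of the clean reads in replicates 1, 2 and 3.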

How the results depend on the processing

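Of 40 alternatives over 7 results, 30 moved the value by less than the spread between libraries. The mature level of miR-218-5p, 7899.98 CPM of the mature counts, was 7920 with TMM factors, 7917 with DESeq2 size factors and 7870.2 with the libraries pooled. Other denominators are a change of unit and lowered it by construction, to 4548 CPM of all miRNA entries and 282 CPM of the clean reads, and the hairpin level to 1959 and 121. The rank fell from 23 to 27 when mature and hairpin entries were summed. The mature share was 58.1% when each type was scaled to its own total, because hairpin totals are smaller. The percentile of the 5p share fell from 93.1 to 54.5 when miRNAs with counts on 1 arm alone were kept in the reference set. The percentile of the mature share was 69.6 among identifiers with at least 1000 counts.

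Leaving out each replicate gave mature levels from 7480 to 8264 CPM, ranks of 22 and 23, hairpin levels from 4972 to 6428 CPM, mature shares from 68.8% to 71.4%, 5p shares from 99.8% to 100%, percentiles of the mature share from 69.4 to 74.5, and percentiles of the 5p share from 85.0 to 92.8. The percentiles without a replicate and with one-armed miRNAs were added after the data were seen. Without replicate 2 no mature 3p count remained, so the percentile of the 5p share has no value there. The 26 mature 3p counts rest on replicate 2 alone. No paired analysis was possible because there is a single group. The 3p entries had few counts, and 3 counts correspond to 2.98 to 3.44 CPM of the mature counts.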
